A study of Mus musculus with 6 samples.

Results

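The transcripts of 7 genes that build the coat and the fertilization surface of the mouse egg were followed in oocytes and 4-cell embryos of wild-type and YAP-null mothers. The genes were Zp1, Zp2, Zp3, Folr4, Cd9, Astl and Oosp1, taken by symbol from the 23308 gene symbols of the deposited tables. All 7 were listed in all 6 libraries, each at 1 locus. RNA from 60 oocytes or embryos per library was sequenced. Oocytes at the germinal vesicle (GV) stage, the fully grown oocyte before meiotic maturation, gave 2 libraries from YAP-null females (Yap1 deleted in the oocyte, YAP-/-) and 2 from wild-type females. Embryos at the 4-cell stage gave 1 library from YAP-null and 1 from wild-type mothers. All females were on the ICR background, were 21 to 23 days old and had been injected with the gonadotropins PMSG and hCG; for embryos they were mated. The sources used here do not give what drove the deletion or the genotype of the fathers. For embryos, YAP-null and wild-type therefore name the genotype of the mother. Whether embryos of YAP-null mothers carried a working Yap1 copy is not known. By the series title, the question was whether YAP carried by the oocyte activates the genome of the early embryo. Levels are in FPKM, fragment counts divided by transcript length and by the library total, a scale on which genes can be set side by side.

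The zona pellucida is the extracellular glycoprotein coat that the growing oocyte secretes around itself. ZP2 carries the domain to which sperm bind, ZP3 pairs with it in the coat's filaments, and ZP1 cross-links those filaments. On the plasma membrane, Folr4 encodes JUNO, a GPI-anchored protein of the folate receptor family that binds IZUMO1 on sperm, and Cd9 encodes a tetraspanin needed for the fusion of sperm and egg. Astl encodes ovastacin, the cortical granule protease that cuts ZP2 after fertilization and so ends sperm binding. Oosp1 encodes a secreted oocyte protein. Transcripts of the zona genes are made during oocyte growth and are known to be degraded when the oocyte matures.

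In the mm9 build the loci lay at chr19:10988787-10995091 (Zp1), chr7:127275875-127288804 (Zp2), chr5:136455975-136464494 (Zp3), chr9:14690258-14708395 (Folr4), chr6:125410284-125444773 (Cd9), chr2:127164375-127183387 (Astl) and chr19:11741950-11765541 (Oosp1). The sequence tables from RefSeq (build GRCm38.p6) held an upstream window for 5 of the 7: Zp3, Folr4 (under its RefSeq symbol Izumo1r), Cd9, Astl and Oosp1. Of these, 4 are printed because 6 of the 7 transcripts differed together at the 4-cell stage and because FIGLA, the oocyte transcription factor known to act on the zona genes, binds an E-box with a partner protein. The windows below are the 250 bases before the start on the gene's own strand, for a zona gene, for the receptor gene with the lowest 4-cell level, for the most abundant gene and for Cd9, whose course differed from that of the other 6. Capitals mark each E-box, CANNTG, which reads the same on both strands.
Zp3 at chr5:135979855-135980104, plus strand: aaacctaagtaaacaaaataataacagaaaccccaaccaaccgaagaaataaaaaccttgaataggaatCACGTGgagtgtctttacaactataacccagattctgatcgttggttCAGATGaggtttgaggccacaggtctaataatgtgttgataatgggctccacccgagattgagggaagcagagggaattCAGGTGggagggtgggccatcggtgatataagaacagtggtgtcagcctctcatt
Folr4 at chr9:14903768-14904017, minus strand: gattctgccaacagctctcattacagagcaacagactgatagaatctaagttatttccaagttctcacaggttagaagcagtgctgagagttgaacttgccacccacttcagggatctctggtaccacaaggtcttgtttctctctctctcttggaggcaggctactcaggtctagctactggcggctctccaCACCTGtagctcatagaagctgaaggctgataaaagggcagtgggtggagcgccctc
Oosp1 at chr19:11691052-11691301, minus strand: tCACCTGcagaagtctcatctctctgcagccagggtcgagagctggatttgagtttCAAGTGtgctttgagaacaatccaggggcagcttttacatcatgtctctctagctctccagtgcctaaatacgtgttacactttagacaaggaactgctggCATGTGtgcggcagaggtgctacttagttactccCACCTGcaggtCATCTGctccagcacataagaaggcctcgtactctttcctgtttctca
Cd9 at chr6:125494761-125495010, minus strand: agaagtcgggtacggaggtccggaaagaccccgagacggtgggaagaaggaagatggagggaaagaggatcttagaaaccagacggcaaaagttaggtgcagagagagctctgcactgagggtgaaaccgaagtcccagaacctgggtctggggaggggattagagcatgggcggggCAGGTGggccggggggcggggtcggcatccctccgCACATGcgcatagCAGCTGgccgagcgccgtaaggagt
The Zp3 window held 3 E-boxes, of which CACGTG lay 181 to 176 bases and CAGGTG 55 to 50 bases before the start. TATAA stood at 2 places in it, 160 to 156 and 29 to 25 bases before the start. The Folr4 window held 1 E-box, CACCTG, 57 to 52 bases before the start. The Oosp1 window held 5, with CACCTG 59 to 54 bases before the start. Cd9, with 3 E-boxes, was not set apart by these letters, and the 2 windows listed for Astl held 0 and 3. An E-box stood in 66.2% of 32851 windows of the same length, at least 2 in 31.8%, and TATAA on either strand in 22.8%, so these matches are common and are given as a description.

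In the libraries labelled YAP-null, Yap1 was at 10.8 and 10.04 FPKM in GV oocytes, against 248 and 153.5 FPKM in wild type, and at 33.3 against 89.7 FPKM at the 4-cell stage. The YAP-null 4-cell value was 320% of the YAP-null GV mean. For the 4-cell samples the source field reads GV oocyte, against 4-cell in the title and stage fields; the title was followed. Oocyte markers were present in every GV library, with 10 of 10 at 1 FPKM or more and a sum of 6758 to 8492 FPKM. At the 4-cell stage that sum was 1178 FPKM in the YAP-null library against 83.0 FPKM in the wild-type one. The sum of 10 cleavage embryo markers was 1876 and 2143 FPKM there, against 674 to 1029 FPKM in GV oocytes. Dppa3 held most of it, at 1440 and 1625 FPKM, and was at 389 to 866 FPKM in GV oocytes. In the stage fit described below, 6 of 8 measured cleavage markers rose, while Dppa3 and Pou5f1 did not pass. Of 16 cumulus and granulosa cell markers, 5 to 7 reached 1 FPKM in GV oocytes (sum 41.2 to 52.3 FPKM) and Tnfaip6 and Ptx3 were listed at 0 in every library. The sum of 9 sperm markers was 0.526 to 16.3 FPKM, and that of 8 blood cell markers 0.185 to 4.06 FPKM in GV oocytes. The labels do not say that the replicates of a group came from separate animals or days, so p-values measure the spread between these libraries, which may be technical. In these bulk samples fewer cells of a kind and less RNA per cell cannot be told apart.

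Oosp1 and Zp3 were among the most abundant transcripts of the GV oocyte, ranking 4 to 29 and 6 to 54 by FPKM among all symbols, while Cd9 ranked 651 to 1217. By the mean over the 4 GV libraries Oosp1 came first with 1439 FPKM, followed by Zp3 with 1201 FPKM, Zp2 with 810.2 FPKM, Zp1 with 503 FPKM, Astl with 194 FPKM, Folr4 with 190.5 FPKM and Cd9 with 89.2 FPKM. Neighbours in this order were not all distinct: Oosp1 exceeded Zp3, Zp2 exceeded Zp1 and Astl exceeded Folr4 in only 2 of 4 libraries each. Zp3 was above Zp2, Zp1 above Astl and Folr4 above Cd9 in 4 of 4. Every GV value of Oosp1 and Zp3 lay above its own deposited upper bound, and no Folr4 or Astl value did. The order between genes is given with that limit. Together the 7 transcripts held 0.771% and 1.42% of the summed FPKM in YAP-null GV libraries 1 and 2, against 1.01% and 1.43% in their wild-type counterparts. At the 4-cell stage the share was 0.202% in the YAP-null and 0.0713% in the wild-type library.

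**Figure D1:**
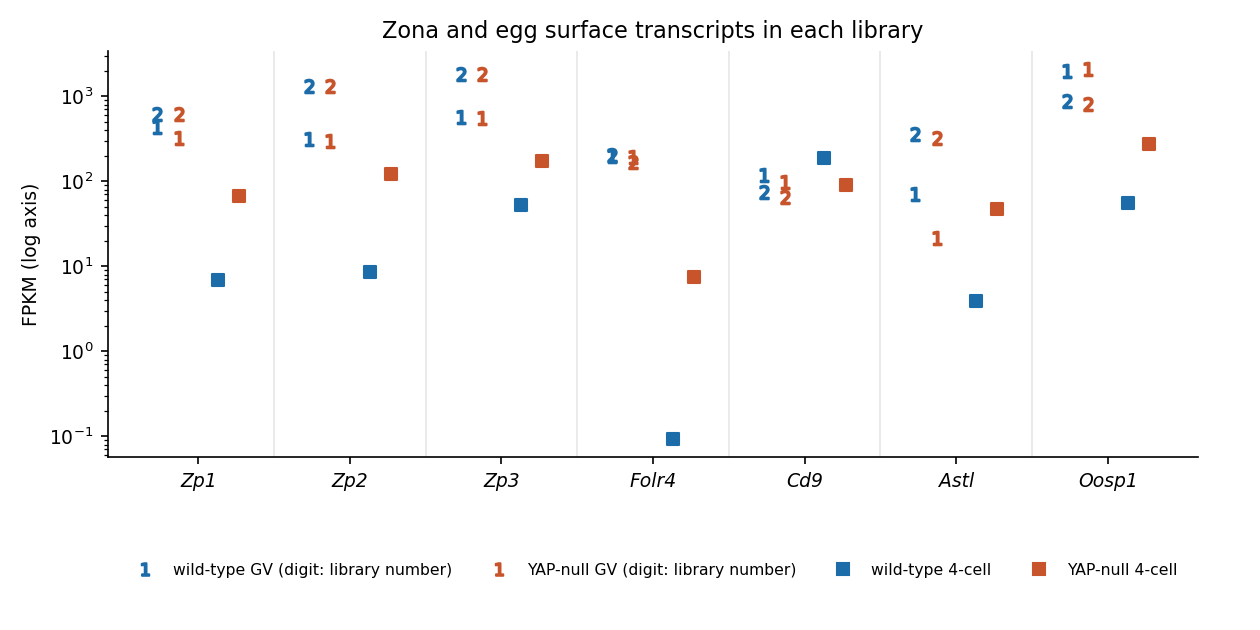
FPKM (log axis) of the 7 genes in each library. Digits mark the GV libraries by their number, squares mark the 4-cell libraries, and colours give the genotype. The genes other than Cd9 were higher in every GV library than in the wild-type 4-cell library, and Cd9 was highest in that library.

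The GV libraries split by their number more than by genotype for 6 of the genes, all but Folr4. For 4 of them the split reached 2-fold: in both genotypes Zp2, Zp3 and Astl were higher and Oosp1 was lower in library 2 than in library 1 by at least that much. Over all genes 18.0% of 10431 in YAP-null and 16.4% of 10469 in wild type were at least 2-fold higher in library 2, and 8.89% and 6.84% were at least 2-fold lower. Estimated depth relative to wild-type GV library 1 was 0.314 and 0.401 in YAP-null libraries 1 and 2 and 0.375 in wild-type library 2. These estimates rest on 14, 11 and 15 genes and are approximate. The part of depth in the split was not tested.

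No member passed the test between YAP-null and wild-type GV oocytes. With limma across 10462 genes, 0 of the 7 had an adjusted p under 0.05, the smallest unadjusted p among them was 0.565, and 0.00% of all genes passed (0.210%, or 22 genes, at an unadjusted p under 0.05). The median difference of the 7 was -0.14 (log2, YAP-null minus wild type), against -0.00 over all genes. The deleted gene itself did not pass this test either: Yap1 differed by -4.10 ± 0.387 (SE; adjusted p = 1.00), and passed with a replicate block (adjusted p = 7.57e-05). In simulated data of this size the GV test recovered 0% of planted log2 changes of 1 or 2, 40% of those of 4 and 60% of those of 6. The fit without a block could therefore not detect a moderate difference. The simulated libraries varied independently, while same-numbered GV libraries deviated together (r = 0.849 across 10462 genes). A fit with a block was not simulated.

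Zp2, the sperm-binding component of the coat, was at 295 and 1315 FPKM in the YAP-null GV libraries, against 312 and 1319 FPKM in the wild-type pair. The means were 805 ± 721 and 816 ± 712 FPKM (SD, n = 2), and the log2 difference was -0.04 ± 1.03 (SE; limma adjusted p = 1.00). The genotypes overlapped, and nearly all of the spread lay between the libraries numbered 1 and 2. Zp3 behaved alike, at 551 and 1849 FPKM in the YAP-null GV libraries, against 572 and 1830 FPKM in the wild-type pair. Its means were 1200.3 ± 918 and 1200.7 ± 889 FPKM and its log2 difference was -0.02 ± 0.868 (adjusted p = 1.00). Zp1, the cross-linker, was at 324 and 621 FPKM in the YAP-null GV libraries, against 440.3 and 626 FPKM in the wild-type pair. The lowest of its 4 values was in YAP-null library 1, the groups overlapped, and the log2 difference was -0.23 ± 0.491 (adjusted p = 1.00).

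The make-up of the zona transcripts followed the library number in GV oocytes. Zp3 made up 43.2% to 48.9% of the summed FPKM of Zp1, Zp2 and Zp3 in the 4 GV libraries. Zp1 made up 27.7% and 33.2% in YAP-null and wild-type libraries 1 and 16.4% and 16.6% in libraries 2, while Zp2 made up 25.2% and 23.6% in libraries 1 and 34.7% and 34.9% in libraries 2.

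Folr4, the sperm receptor gene, was at 193 and 170.0 FPKM in the YAP-null GV libraries, against 197.5 and 201.5 FPKM in the wild-type pair. It varied least of the 7 between libraries of a group, and both YAP-null values lay under both wild-type values. The log2 difference was -0.14 ± 0.332 (adjusted p = 1.00), and 5.68% of all genes had groups that did not overlap with YAP-null lower. Cd9, the fusion tetraspanin, was at 97.0 and 65.3 FPKM in the YAP-null GV libraries, against 120.0 and 74.5 FPKM in the wild-type pair. The values overlapped and were higher in library 1 of each genotype, with a log2 difference of -0.25 ± 0.426 (adjusted p = 1.00).

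Astl, the ovastacin gene, had the widest spread. It was at 21.3 and 322 FPKM in the YAP-null GV libraries, against 70.3 and 363 FPKM in the wild-type pair. Library 2 exceeded library 1 by 15.1-fold in YAP-null and by 5.17-fold in wild type, more than the genotypes differed within either number. The log2 difference between genotypes was -0.92 ± 1.497 (adjusted p = 1.00). Oosp1 ran the other way, at 2083 and 816 FPKM in the YAP-null GV libraries, against 1973 and 884 FPKM in the wild-type pair. Its library 1 exceeded library 2 by 2.55-fold and 2.23-fold, and its genotype difference was -0.02 ± 0.693 (adjusted p = 1.00).

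**Figure D2:**
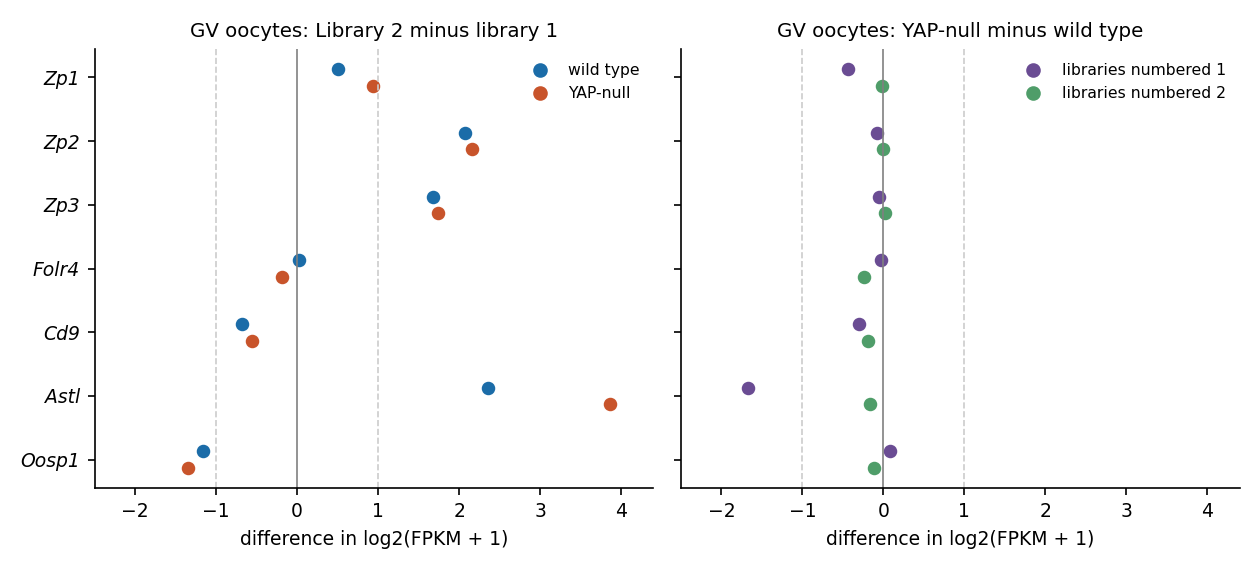
Differences in log2(FPKM + 1) among the 4 GV libraries, with library 2 minus library 1 of each genotype on the left and YAP-null minus wild type for each library number on the right; dashed lines mark a 2-fold difference. Zp2, Zp3, Astl and Oosp1 lie past the dashed lines on the left for both genotypes, while on the right only Astl in the libraries numbered 1 does, at -1.68.

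From the GV to the 4-cell stage, 5 of the 7 genes fell and 0 rose. In a limma fit on all 6 libraries with terms for genotype and stage, Zp1, Zp2, Zp3, Folr4 and Oosp1 had an adjusted p under 0.05 over 11451 genes, and Cd9 and Astl did not. The fit takes 1 stage difference for both genotypes, so each value averages the genotypes and their gap widens its SE. Within wild type the log2 stage difference was larger in size than within YAP-null for each of the 7. It was -6.04 against -2.72 for Zp1 and 0.98 against 0.18 for Cd9. Of all genes 27.8% passed as lower and 28.2% as higher. The median stage difference of the 7 was -3.41 (log2, 4-cell minus GV), against -0.10 over all genes. The count rests on the wild-type 4-cell library: without it Folr4 alone of the 7 remained past the threshold (adjusted p = 0.00571), and without the YAP-null 4-cell library 4 of the 7 did. Without YAP-null GV library 1 there were 6, Astl among them (adjusted p = 0.0073).

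Folr4 showed the lowest level of all. It was at 0.0930 FPKM in the wild-type 4-cell library, with deposited bounds of 0 to 0.465 FPKM, and at 7.41 FPKM in the YAP-null one. Against the GV mean of the same genotype, its FPKM stood at 0.0466% in wild type and 4.08% in YAP-null. FPKM is relative to the library total, so such percentages, here and below, are not amounts per embryo. They also do not separate RNA stored in the oocyte from newly made RNA. The stage difference was -5.98 ± 0.680 (SE; adjusted p = 0.000818), and no 4-cell value came near the GV range of 170.0 to 201.5 FPKM.

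Among the zona genes, Zp1 was at 67.0 FPKM in the YAP-null 4-cell library against 6.98 FPKM in the wild-type one, 14.2% and 1.31% of the GV means. Its stage difference was -4.38 ± 0.782 (adjusted p = 0.00417). Zp2 was at 121 and 8.47 FPKM, 15.0% and 1.04% of the GV means, with a stage difference of -4.22 ± 1.09 (adjusted p = 0.0175). Zp3 was at 172 and 52.1 FPKM, 14.3% and 4.34% of the GV means, with a stage difference of -3.41 ± 0.782 (adjusted p = 0.0111). In the wild-type library Zp3 stood higher against its GV mean than Zp1 or Zp2. It made up 77.1% of the zona transcripts there, against 47.8% in the YAP-null 4-cell library. Zp2 made up 12.5% and 33.5%, and Zp1 10.3% and 18.6%. For all 3 zona genes both 4-cell values lay under all 4 GV values. The percentage of the GV level depends on which GV library is used. In YAP-null embryos it was 20.7% of library 1 but 10.8% of library 2 for Zp1, 40.9% and 9.17% for Zp2, and 31.2% and 9.30% for Zp3. In wild-type embryos it was 1.59% and 1.11% for Zp1, 2.71% and 0.642% for Zp2, and 9.11% and 2.85% for Zp3. These were below the YAP-null percentages against either library.

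Oosp1 was at 274 FPKM in the YAP-null 4-cell library against 55.4 FPKM in the wild-type one, 18.9% and 3.88% of the GV means. It fell by 3.40 ± 0.747 on the log2 scale (adjusted p = 0.00935) and both 4-cell values lay under all 4 GV values. Against GV libraries 1 and 2 singly, Oosp1 stood at 13.1% and 33.5% in YAP-null and at 2.81% and 6.27% in wild-type embryos. Astl was at 47.2 and 3.87 FPKM, 27.4% and 1.79% of the GV means, and its stage difference of -2.93 ± 1.42 did not pass (adjusted p = 0.121). The YAP-null 4-cell value of Astl lay above YAP-null GV library 1, at 222% of it and at 14.6% of library 2, so the stages overlapped. The wild-type percentages were 5.51% and 1.07%. With the GV libraries numbered 1 only, the Astl stage difference was -1.38 (adjusted p = 0.197), and with those numbered 2 only it was -4.49 (adjusted p = 0.00167), a pair of fits chosen after seeing the data.

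Cd9 took another course. It was at 90.6 FPKM in the YAP-null 4-cell library, inside the GV range of 65.3 to 120.0 FPKM, and at 188 FPKM in the wild-type one, above every GV value. These were 112% and 193% of the GV means (93.4% and 139% of YAP-null libraries 1 and 2, 157% and 252% of the wild-type ones), and the stage difference of 0.58 ± 0.409 did not pass (adjusted p = 0.261). The order of the genes changed with this: Cd9, the lowest of the 7 in GV oocytes, was the highest in the wild-type 4-cell library, while Oosp1, Zp3 and Zp2 exceeded it in the YAP-null one.

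At the 4-cell stage 6 of the 7 transcripts were more abundant in the YAP-null than in the wild-type library and Cd9 was less abundant. With 1 library per genotype there is no replicate check, and a difference of at least 2-fold on the log2(FPKM + 1) scale was counted without a test. Of 10854 genes, 17.7% were at least 2-fold higher in YAP-null and 9.97% at least 2-fold lower. That is 1925 genes higher and 1082 lower, or 2346 and 765 after scaling every library to an equal sum. The median difference of the 7 was 2.94 (log2), against 0.05 over all genes.

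By ratio of FPKM, Zp2 was 14.2-fold, Astl 12.2-fold, Zp1 9.59-fold, Oosp1 4.94-fold and Zp3 3.30-fold higher in the YAP-null 4-cell library. On the log2(FPKM + 1) scale these were differences of 3.68, 3.31, 3.09, 2.28 and 1.70. Folr4, at 7.41 against 0.0930 FPKM, differed by 2.94 with the pseudocount of 1 FPKM, by 5.28 with 0.1 FPKM and by 1.28 with 5 FPKM, since the wild-type value is close to 0. Cd9 was 2.08-fold higher in wild type, a log2 difference of -1.04 that was -0.85 after scaling every library to an equal sum and -0.95 with quantile normalization, both under 2-fold.

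The oocyte markers showed the same direction as the 6 genes. All 10 were higher in the YAP-null than in the wild-type 4-cell library, 9 of them by at least 2-fold, with a median of 3.25 on the log2 scale. Against the GV mean, the markers' median level at the 4-cell stage was 11.8% in YAP-null and 0.825% in wild type. Bcl2l10, an anti-apoptotic oocyte gene, was at 583 against 14.4 FPKM and Gdf9, the oocyte growth factor, at 220.2 against 19.9 FPKM. Ddx4, the germ cell helicase, stood above 100% of its GV level in both genotypes. Of 9 measured cleavage embryo markers, 5 were at least 2-fold lower and 0 higher in the YAP-null library, with a median of -1.02; after scaling every library to an equal sum 2 were. The blood cell markers summed to 25.9 FPKM in the YAP-null 4-cell library against 103 FPKM in the wild-type one. The cumulus cell markers summed to 94.7 and 181 FPKM, with Nr5a2 the only one at 1 FPKM or more. Nr5a2 alone was at 92.1 and 179 FPKM, so it made up nearly all of those sums. Of 5 cumulus cell markers measured in the stage fit, 3 fell and 1, Nr5a2, rose. The part of these marker groups in the differences of the 7 genes was not tested.

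**Figure D3:**
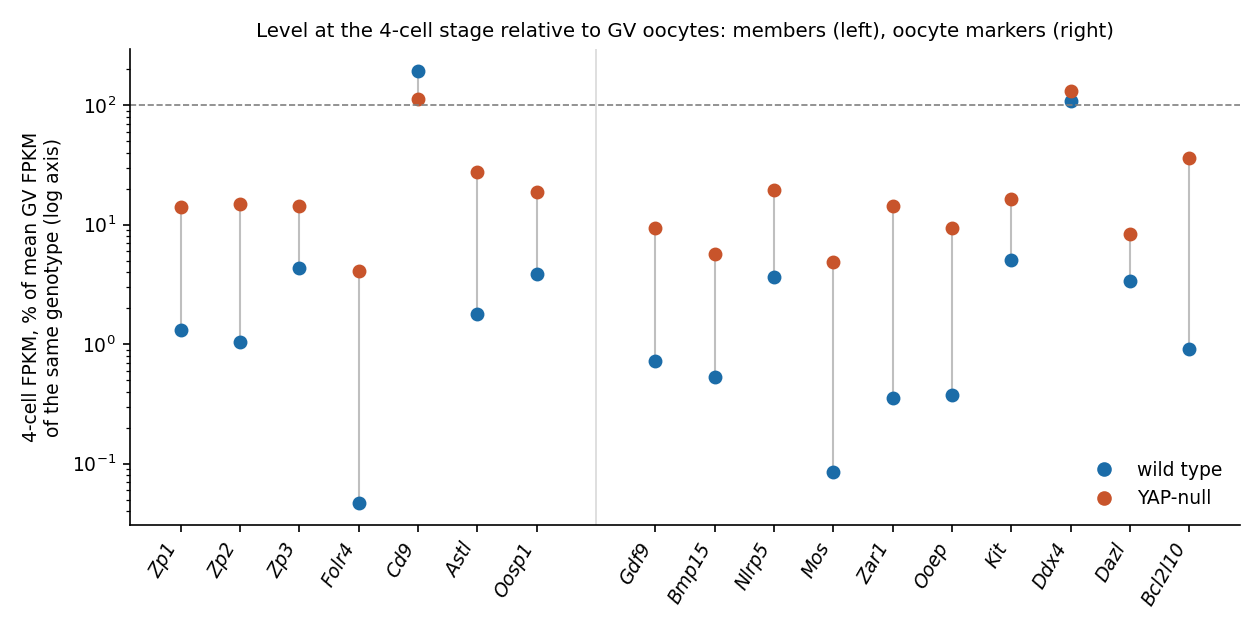
FPKM at the 4-cell stage as a percentage of the mean GV FPKM of the same genotype (log axis), for the 7 genes on the left and 10 oocyte markers on the right; grey lines join the genotypes and the dashed line marks 100%. YAP-null lies above wild type for all genes shown except Cd9, which stands at 112% and 193%.

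Most transcription factors known to act on zona and other oocyte genes fell with stage. Of 9 measured, 6 fell and 1 rose with stage (median -2.85), 5 of 8 were at least 2-fold higher and 0 lower in the YAP-null 4-cell library (median 1.63), and 0 of 9 passed the GV test. Figla, which encodes the E-box factor of the zona genes, was at 12.1 and 26.6 FPKM in the YAP-null GV libraries, against 13.7 and 23.5 FPKM in the wild-type pair, and at 4.90 and 0.182 FPKM at the 4-cell stage. Like Zp1, Zp2, Zp3 and Astl, it was higher in GV library 2 of both genotypes, while Oosp1 and Cd9 were lower there. Over all genes, 18.0% in YAP-null and 16.4% in wild type were at least 2-fold higher in library 2. Nobox, an oocyte homeobox factor, stayed between 230 and 245.1 FPKM in all 4 GV libraries and was at 24.6 FPKM in YAP-null embryos against 1.10 FPKM in wild-type ones. Lhx8, a LIM homeobox factor of the oocyte, was at 86.3 to 102 FPKM in GV oocytes and at 14.2 and 0.584 FPKM at the 4-cell stage. Gtf2a1l, a germ cell form of a general transcription factor, was at 32.4 to 43.4 FPKM in GV oocytes, at 2.95 FPKM in YAP-null embryos and at a listed 0 in wild-type ones.

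Genes for the processing and glycosylation of zona proteins were mixed. Of 9 measured, 3 fell and 2 rose with stage (median -0.04), and 1 was at least 2-fold higher and 1 lower in the YAP-null 4-cell library (median -0.72). Furin, a proprotein convertase, was at 21.9 and 173 FPKM in the YAP-null GV libraries, against 26.3 and 176 FPKM in the wild-type pair, and at 2.38 and 7.59 FPKM in YAP-null and wild-type embryos. Mgat2, an enzyme of N-glycan branching, was at 0.524 to 1.64 FPKM in GV oocytes and at 122 and 96.4 FPKM in YAP-null and wild-type embryos (stage adjusted p = 0.00015).

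A list of 12 genes held membrane partners of CD9, egg integrins, and also Cd55 and Maea. Of these, 7 fell and 2 rose with stage (median -1.75), with Cd55 and Maea among those that fell. Of 9 measured at the 4-cell stage, 4 were at least 2-fold higher and 1 lower in YAP-null (median 0.32). Cd55 was among the higher ones. Itga9, the integrin alpha-9 subunit, was at 23.2 to 42.3 FPKM in GV oocytes and at 14.2 and 0.797 FPKM in YAP-null and wild-type embryos. Itgb1, the beta-1 subunit, was lower in YAP-null embryos, at 4.26 against 13.4 FPKM. Of the 16 measured genes for cortical granule release and egg activation, where ovastacin acts, 7 fell and 2 rose with stage (median -1.07). At the 4-cell stage 4 of 15 were at least 2-fold higher and 0 lower in YAP-null (median 0.33). Wee2, an oocyte kinase that holds meiotic arrest, was at 126 to 168 FPKM in GV oocytes and at 85.5 and 5.97 FPKM in YAP-null and wild-type embryos.

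The GPI anchor, through which JUNO is held on the membrane, is made by a set of Pig genes. Of 20 measured, 4 fell and 5 rose with stage (median -0.01), and of 19 at the 4-cell stage 2 were at least 2-fold higher and 1 lower in YAP-null (median -0.01). Pigl, an anchor biosynthesis enzyme, was at 1.13 against 7.89 FPKM in YAP-null and wild-type embryos, and Pigf, another gene of that pathway, at 63.6 against 17.2 FPKM. Relatives of the 7 genes by family included 18 measured, of which 9 fell and 3 rose with stage (median -1.16). At the 4-cell stage 4 were at least 2-fold higher and 2 lower in YAP-null (median -0.21). Plac1l, the symbol that RefSeq lists as a synonym of Oosp2, was at 152 and 265 FPKM in the YAP-null GV libraries, against 142 and 286 FPKM in the wild-type pair, and at 12.1 and 0.641 FPKM in YAP-null and wild-type embryos. Its stage difference was -5.45 ± 0.735 (adjusted p = 0.00148). Of these 6 lists, 0 genes passed the GV test. Without the wild-type 4-cell library the number that fell with stage was 4 for the transcription factors, 0 for processing and glycosylation, 3 for the membrane partners, 2 for cortical granules and activation, 1 for the GPI anchor and 7 for the relatives.

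**Figure D4:**
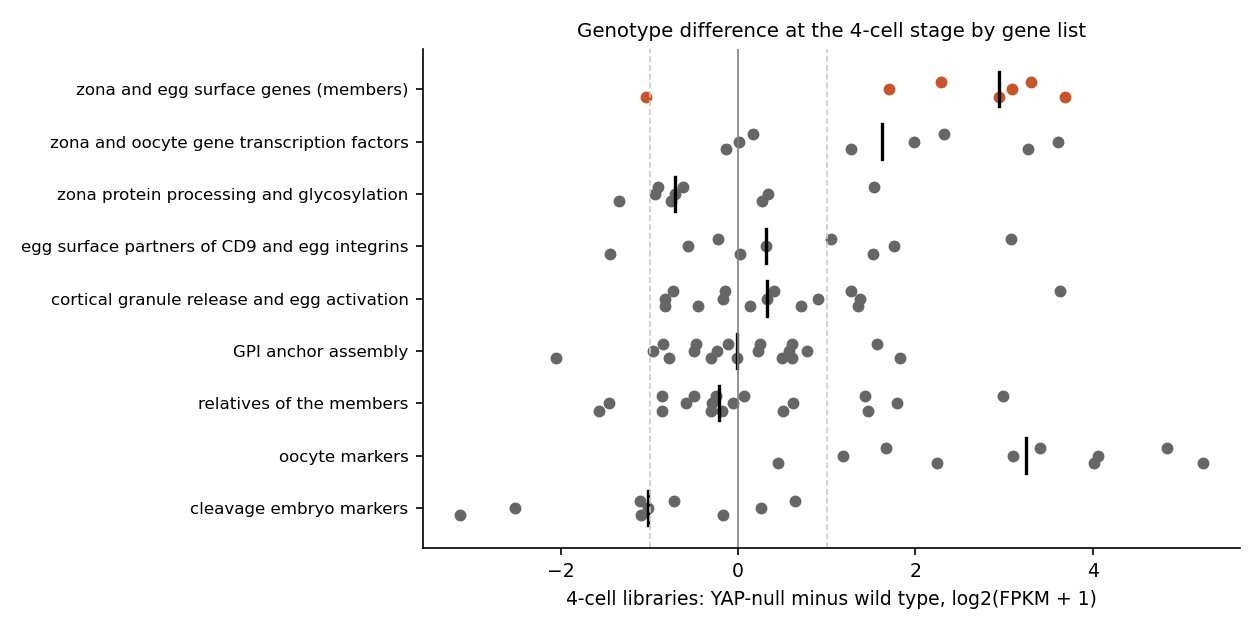
Difference in log2(FPKM + 1) between the YAP-null and wild-type 4-cell libraries for each measured gene of a list (points), with the median as a bar and dashed lines at a 2-fold difference. The 7 genes (median 2.94), the oocyte transcription factors (1.63) and the oocyte markers (3.25) have their medians to the right of the 2-fold line, and the GPI anchor genes have a median of -0.01.

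The genes most like each member were found by the root mean square difference of centred log2(FPKM + 1) over the 6 libraries, among 6217 genes averaging 10 FPKM or more; the libraries share stage and number, so nearness is a description. Nearest to Zp1 were Gm13084 (0.240), Tle6 (0.243) and Fam160a1 (0.262). Zp2 had 7420461P10Rik and Nlrp9a (both 0.367) and Nlrp14 (0.394), and Zp3 had Pde3a (0.116), Phf15 (0.165) and Cobll1 (0.192). Folr4 had Fbxw18 (0.128), Speer5-ps1 (0.187) and Nlrp9b (0.291). Astl had Npm2 (0.471), Padi6 (0.483) and Bpgm (0.608), and Oosp1 had Klhl32 (0.0890), Klhl13 (0.181) and Hyal2 (0.184). Cd9 had Rpl39 (0.132), Eif2b3 (0.140) and Eif3d (0.141). Between members the closest pair was Zp1 and Zp2, at 0.608, while Cd9 lay 2.13 to 3.31 from each of the others.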

How the data were processed

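Polyadenylated RNA from pools of oocytes or embryos was sequenced in paired ends, per the labels' protocols. The deposited tables, 1 per library, list each gene in FPKM; per the submitters' processing notes, CASAVA 1.8, TopHat and the mm9 build were used. The sources used here do not name the quantifier or its annotation. Of 23813 lines, 1 had failed quantification and was removed, and 260 symbols at several loci were summed. The tables give no read totals. Relative depth, estimated from deposited bounds that match whole fragments, was 0.314 to 1, and is approximate. The bounds' median half-width for the 7 genes was 5.80% of the value, but 23 of 42 values lay above their own upper bound. Every Oosp1 and Zp3 value was among them, and no Folr4 or Astl value was. Bounds are therefore printed only for Folr4.

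Values were compared as log2(FPKM + 1) for genes averaging 1 FPKM or more over the libraries compared, by limma-trend (limma 3.58.1, R 4.3.3), two-sided, with Benjamini-Hochberg adjustment over all genes tested and a threshold of 0.05. The GV fit used 4 libraries without a replicate block, the stage fit 6 libraries with genotype as a term; the 4-cell difference has no test. An exact permutation test of 2 against 2 libraries could not reach the threshold. In simulated data the stage fit found 0%, 32%, 78% and 88% of genes given log2 changes of 1, 2, 4 and 6, with 7 unchanged genes called among 11451, and the GV fit called 3 among 10462. Other pseudocounts, filters and scalings, a replicate block and leaving out each library were tried. Of each list, up to 4 genes could be named: those past a test or 2-fold, by the size of the 4-cell difference, or else the most abundant. The members and lists were chosen with earlier results of these data known.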

Additional observations from a re-analysis of the deposited data

Results flagged for a closer look

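Folr4 was the only one of the 7 genes whose GV groups did not overlap and whose 4-cell difference had the opposite sign. The sign also differed between stages for Zp1, Zp2, Zp3, Astl and Oosp1, whose GV groups overlapped. Their GV signs were not firm, since leaving out 1 GV library could reverse each of them. For Zp3 (-0.053 and 0.016) and Oosp1 (0.079 and -0.114) the GV libraries numbered 1 and 2 differed in sign. Over all 10462 genes, 5.68% had GV groups that did not overlap with YAP-null lower. In GV oocytes both YAP-null values lay under both wild-type values, with a log2 difference of -0.14 ± 0.332 (SE; limma adjusted p = 1.00) that ran from -0.23 without YAP-null GV library 1 to -0.05 without YAP-null GV library 2, while at the 4-cell stage the YAP-null library was higher by 2.94. Whether the genotype difference changed between stages was not tested, since the 4-cell stage has 1 library per genotype.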

How the results depend on the processing

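The 4-cell differences of the 7 genes kept their direction under every pseudocount, filter and scaling tried; Folr4 was not measured with a mean of at least 5 FPKM. Cd9 fell short of 2-fold, leaving 0 genes lower, after scaling every library to an equal sum (-0.85) and with quantile normalization (-0.95). Over all genes the 4-cell count of 3007 was 1275 (834 higher, 441 lower) with a pseudocount of 5 FPKM and 1723 (1083 higher, 640 lower) with a mean of at least 5 FPKM. Scaling every library to an equal sum moved the median of all genes from 0.05 to 0.23 at the 4-cell stage and from -0.00 to -0.13 in GV oocytes. Quantile normalization moved the stage median from -0.10 to -0.20. The 5 genes lower with stage stayed 5 under every pseudocount, filter and scaling.

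The Zp3 difference in GV oocytes was 0.038 with quantile normalization. Leaving out 1 GV library at a time gave ranges of -0.70 to 0.24 for Zp1, -1.12 to 1.03 for Zp2, -0.89 to 0.85 for Zp3, -0.23 to -0.05 for Folr4, -0.59 to 0.094 for Cd9, -2.85 to 1.01 for Astl and -0.69 to 0.66 for Oosp1, and 2 to 7 genes over all passed (1 to 5 higher, 1 to 2 lower), of which 0 were members; the remaining single library is taken to vary as much as the other group. In the stage fit, leaving out 1 library gave 1 to 6 members lower, and 2965 to 6332 genes over all (1650 to 3182 higher, 1315 to 3171 lower). Without the wild-type 4-cell library the adjusted p was 0.0521 for Zp1, 0.296 for Zp2, 0.205 for Zp3 and 0.177 for Oosp1, and without the YAP-null one 0.0683 for Zp3. The Yap1 stage difference ranged from -1.11 to 1.59.

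Same-numbered GV libraries deviated together (r = 0.849 across 10462 genes, which are not independent replicates), but the labels do not say what the number marks, so this is a hint from the data. With a replicate block, 2 genes passed between the GV genotypes (1 higher, 1 lower) and 0 members. The lower one was Yap1 (adjusted p = 7.57e-05), which did not pass without the block. In the stage fit with the block, 6 members passed as lower, with Astl added (adjusted p = 0.0453), and 7989 genes over all. The 4-cell stage, with 1 library per genotype, allows no block.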

Other observations

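Among the relatives of the 7 genes by family, of which 9 of 18 measured fell and 3 rose with stage, and among the integrins, 5 genes are described here that were chosen after their values were seen. Folr1, the folate receptor that takes up folate, was listed at 0 in both YAP-null GV libraries, against 0.270 and 0.240 FPKM in the wild-type pair. At the 4-cell stage it reached 276 FPKM in YAP-null embryos and 390.2 FPKM in wild-type ones (stage difference 8.20 ± 0.297, limma adjusted p = 0.000121), where Folr4 was at 7.41 and 0.0930 FPKM. Among tetraspanins, Cd63 was at 0 to 1.12 FPKM in GV oocytes and at 529 and 962 FPKM in YAP-null and wild-type embryos, and Tspan4 at 0.224 to 1.58 FPKM and at 42.1 and 76.9 FPKM. Tspan14 fell, from 149 to 162 FPKM in GV oocytes to 12.7 and 12.1 FPKM in YAP-null and wild-type embryos. Itgb5, an integrin beta subunit, was at 2.48 to 5.27 FPKM in GV oocytes and at 139.9 and 207 FPKM in YAP-null and wild-type embryos.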
